A study of Homo sapiens with 20 samples.

Results

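HCC366 is a human lung adenosquamous carcinoma cell line, and the comparison described here is that of ADAR knockout (KO) with control in this line alone. It rests on 4 of the 20 RNA-seq libraries of the study, chosen by the cell line and the sgRNA target in their labels. All 4 cultures received a lentivirus that carries Cas9 and 1 sgRNA and gave RNA 5 days after transduction. The study's methods put transduced lines under puromycin or blasticidin selection, controls and KO alike. The controls carried GFP sg1 or GFP sg2, which target a sequence the cells do not have, and the KO libraries carried ADAR sg1 or ADAR sg2. The other 16 libraries come from NCI-H1650, NCI-H196 and A549 cells. No isolation of single clones is stated for these cultures, and each sgRNA was sequenced once in HCC366. The 2 libraries of a group therefore differ in sgRNA, and every p value measures only the spread between these libraries, which may be technical.

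ADAR encodes ADAR1, an enzyme that converts adenosine to inosine in double-stranded RNA (dsRNA) and keeps endogenous dsRNA from being read as viral. When ADAR1 is lost, dsRNA can engage PKR (EIF2AK2), a kinase that phosphorylates the translation factor eIF2α. This slows general translation and favours the transcription factor ATF4 and its targets, among them CHOP (DDIT3). MDA5 (IFIH1) and other sensors instead lead to interferons and interferon-stimulated genes (ISGs), while NF-kB and the AP-1 family drive inflammatory and immediate-early genes.

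After ADAR KO, HCC366 cells raised stress, immediate-early and inflammatory genes with both ADAR sgRNAs, while ADAR RNA itself was lower without passing the test in the 4 libraries. In CPM (counts relative to the TMM-scaled library size), ADAR stood at 804 with GFP sg1 and 1101 with GFP sg2, and at 571 with ADAR sg1 and 490.2 with ADAR sg2. Both KO libraries were below both controls, with a log2 fold change of −0.84 (standard error, SE, 0.31) and an adjusted p of 0.208 in edgeR's quasi-likelihood test. It passed with the GC and length offsets described below (−1.01, adjusted p = 0.0169, edgeR). Without ADAR sg2 the log2 fold change was −0.72. Counts per gene do not tell transcripts with a CRISPR mutation from intact ones, so this level is a weak check of the knockout. Across the 11135 genes tested, 134 rose (1.2% of them) and 5 fell (0.0449%) at an adjusted p under 0.05. At an unadjusted p under 0.05 there were 2014 genes.

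The depth was low and 1 library stood apart. Reads on genes numbered 1270414 with GFP sg1, 3440707 with GFP sg2, 1116439 with ADAR sg1 and 1759633 with ADAR sg2, so that 1 read was worth between 0.287 and 0.875 CPM. In ADAR sg2, 85.6% of alignments were not unique and went uncounted, against 45.3% to 50.9% in the other HCC366 libraries. Its counts also followed the composition of the genes. Relative to the GFP mean, the median log2 ratio in ADAR sg2 went from −1.17 to 0.90 between the lowest and the highest of 5 equal classes of GC content. In ADAR sg1 the medians of the same classes lay between −0.22 and 0.07. For the log ratio to the mean of the 4 libraries, GC content and transcript length together accounted for 51.5% of the variance in ADAR sg2. The shares were 35.5% for GFP sg2, 14.4% for ADAR sg1 and 13.9% for GFP sg1. That mean includes ADAR sg2, so its bias enters the ratios of the other libraries with the opposite sign. Their shares therefore do not measure their own bias alone. Over genes, the chi-square divided by its degrees of freedom was 17.5 between the ADAR libraries and 2.89 between the GFP libraries. Counts of calls were therefore also made with GC and length offsets for every library, and without ADAR sg2. Both are given below where they differ from those of the 4 libraries. The fit without ADAR sg2 leaves 1 KO library, so its spread comes from the GFP pair alone and does not cover variation between KO cultures.

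**Figure D1:**
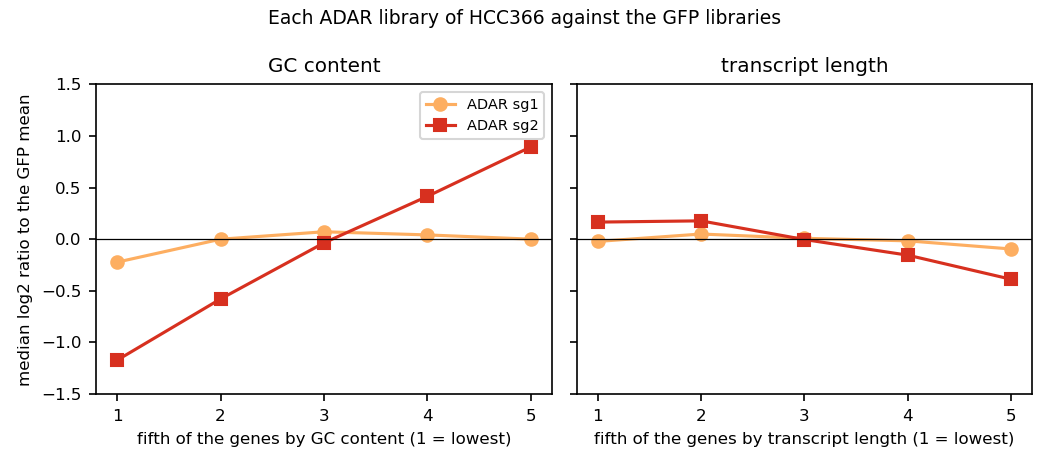
Median log2 ratio of each ADAR library to the mean of the GFP libraries (y axis) over 5 equal classes of the tested genes by GC content (left) and by transcript length (right), with circles for ADAR sg1 and squares for ADAR sg2. ADAR sg2 climbs from −1.17 to 0.90 with GC content, while ADAR sg1 stays between −0.22 and 0.07.

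The genes that rose did so in each ADAR library on its own. All 134 stood above both controls in both ADAR libraries, an order seen in 25.1% of all genes tested. They were called from these same 4 libraries, so this order and the ratios and refits that follow are a description. Their median log2 ratio to the GFP mean was 2.60 in ADAR sg1 and 3.24 in ADAR sg2, and 113 of the 134 were higher in ADAR sg2. Their median GC content was 51.5%, against 48.0% for all tested genes. With GC and length offsets all 134 were still called up, and without ADAR sg2 all 120 that could be tested were called up. Over all genes, 6.5% were called up and 3.04% down with the offsets, and 5.91% up and 3.5% down without ADAR sg2. Without GFP sg1, 28 of the 134 passed, and without GFP sg2, 6 did, although all 134 had a positive fold change in both fits. Of the 134 genes, 116 are protein-coding and 12 are long non-coding RNAs. The shares of all genes called in each fit, given above, are the backgrounds for the list counts below. The lists were chosen with earlier results of these data known, so their counts and order are a description and not independent support.

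**Figure D2:**
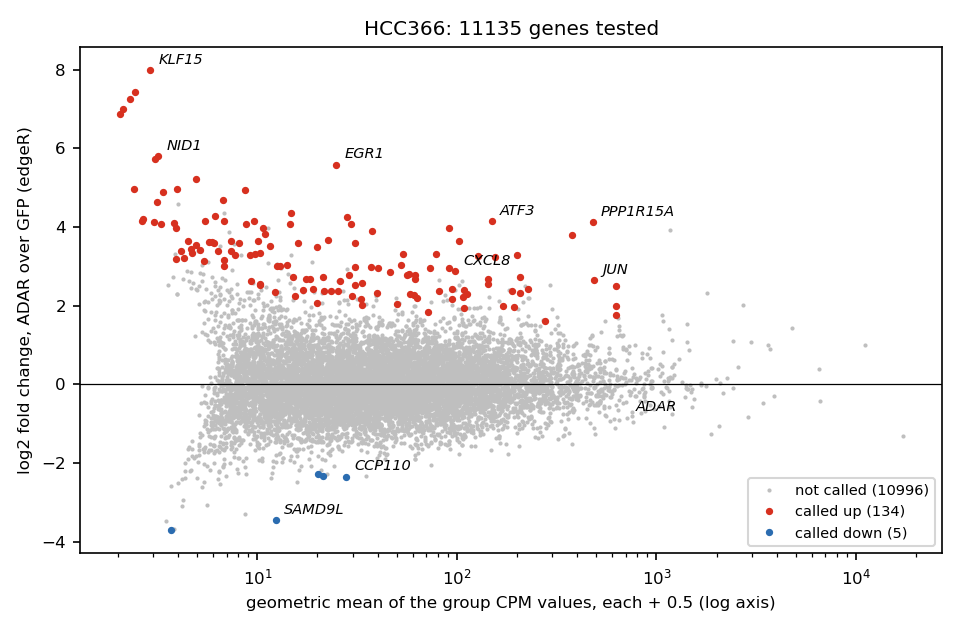
Log2 fold change of ADAR over GFP (edgeR, y axis) against mean expression (x axis, log scale) for the 11135 genes tested in HCC366, with the 134 genes called up in red and the 5 called down in blue. The calls up span low and high expression, with KLF15 and NID1 among the lowest and JUN among the highest, and ADAR itself lies below 0 among the genes not called.

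The strongest group was the ATF4 and CHOP stress response, a program of transcription factors, phosphatase subunits and death receptors that acts on translation and survival. Of 23 listed genes, 21 were tested, 10 rose and 0 fell, against 1.2% of all tested genes that rose. The median log2 fold change of the 21 was 2.38, beside −0.01 for all genes tested. With GC and length offsets 14 were called up with a median of 1.76, and without ADAR sg2 15 were called up with a median of 1.57. Of these genes, 6 are, like ASNS, named by the study as ATF4 targets in these lines, so the list is not independent evidence of its direction.

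ATF3, a stress-induced transcription factor, had 34.1 and 36.1 CPM with the GFP sgRNAs, 456 CPM with ADAR sg1 and 795 CPM with ADAR sg2. PPP1R15A (GADD34), which directs phosphatase 1 to eIF2α and so ends the translation block, had 129 and 101 CPM in the controls and 850.3 and 3116 CPM after KO. DDIT3 had 10.1 and 7.45 CPM against 52.5 and 153 CPM. In these genes the controls lay close together, the groups did not overlap, and ADAR sg2 was well above ADAR sg1. TRIB3, a pseudokinase that restrains ATF4 and AKT, had 34.9 and 23.2 CPM in the controls and 178 and 533 CPM after KO. SESN2, an inhibitor of mTORC1, had 26.3 and 19.5 CPM against 173 and 540.0 CPM. Their log2 fold changes were 3.64 (standard error 0.56) and 3.98 (standard error 0.57), and both had an adjusted p of about 0.027 (0.0273 and 0.0272, edgeR).

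Other members of the response that rose have roles in the endoplasmic reticulum, secretion and death signalling. ERN1 (IRE1α), the sensor of unfolded proteins that splices XBP1, rose with a log2 fold change of 2.78 (SE 0.45, adjusted p = 0.0323 in edgeR), from 20.1 and 26.1 to 103 and 219 CPM. STC2, a secreted glycoprotein, rose by 2.38 on the log2 scale (SE 0.40, adjusted p = 0.0351 in edgeR). TNFRSF10B (DR5), a death receptor for TRAIL, had 88.3 and 106 CPM in the controls and 289 and 478 CPM after KO. It counts among the stress, p53 and cell death lists alike. CHAC1, which degrades glutathione, and CEBPB, a partner of ATF4, missed the threshold with log2 fold changes of 2.97 (adjusted p = 0.0618, edgeR) and 2.50 (adjusted p = 0.0633, edgeR). ATF4 itself, which is governed mostly at translation, had 291 and 240.1 CPM in the controls and 355 and 587 CPM after KO (log2 fold change 0.83, adjusted p = 0.255, edgeR).

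**Figure D3:**
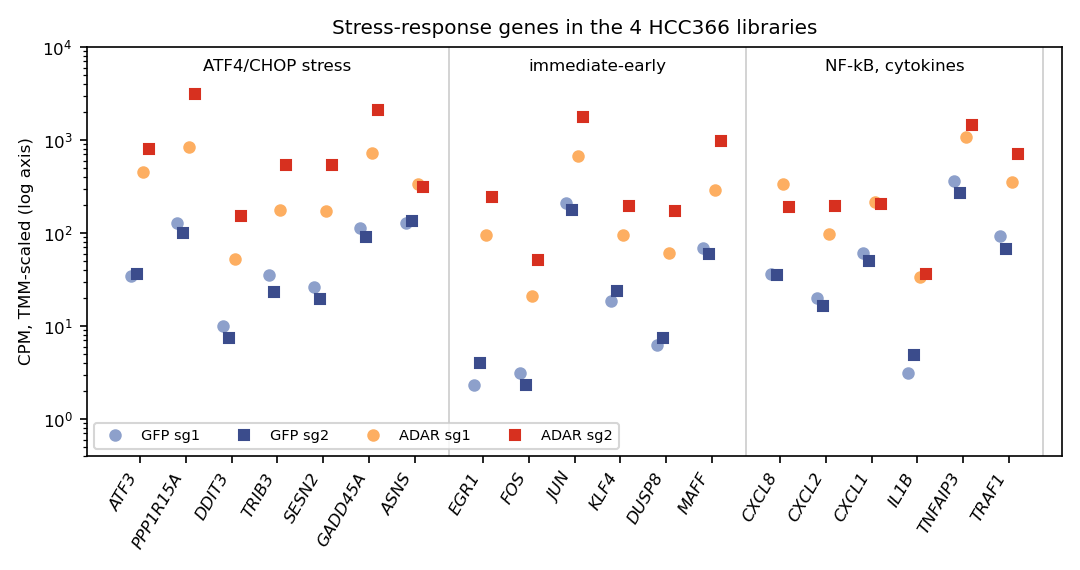
Expression in CPM (y axis, log scale) of 7 ATF4 and CHOP genes, 6 immediate-early genes and 6 NF-kB genes in the 4 HCC366 libraries, with blue points for GFP sgRNAs and orange and red points for ADAR sgRNAs. For every gene shown both ADAR points lie above both GFP points, and ADAR sg2 is the higher of the pair except in ASNS, CXCL8 and CXCL1.

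The enzymes that supply amino acids and charge tRNAs, downstream of ATF4, were mostly higher by smaller amounts. Of 30 tested, 0 passed in either direction, 22 stood above both controls in both ADAR libraries (25.1% of all genes did), and the median log2 fold change was 0.82. The members with the lowest p were CARS1 (1.91, adjusted p = 0.0596), YARS1 (1.70, adjusted p = 0.0667), SLC3A2, the heavy chain of amino acid exchangers (1.61, adjusted p = 0.0845), and ASNS, asparagine synthetase (1.31, adjusted p = 0.0879), all in edgeR. With the GC and length offsets 13 of the 30 were called up and 0 down, and without ADAR sg2 it was also 13 and 0. The share of all genes called up with the offsets was 6.5%. ASNS had 128 and 134 CPM with the GFP sgRNAs, 339 with ADAR sg1 and 308 with ADAR sg2. GOT1, a glutamate-aspartate transaminase outside the list, chosen after its values were seen, rose with a log2 fold change of 2.39 (SE 0.38, adjusted p = 0.0315 in edgeR).

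ER chaperones, the main targets of the other branches of the unfolded protein response, had no calls. Of 20 tested, 0 passed and the median log2 fold change was −0.18, with 3 called up and 1 down under the offsets and 2 up and 1 down without ADAR sg2. XBP1, an effector of IRE1α, had 126 and 124 CPM in the controls and 294 and 437 CPM after KO (log2 fold change 1.55, adjusted p = 0.071, edgeR). HSP90B1 (GRP94), the chaperone of the endoplasmic reticulum lumen, had 829 and 984 CPM against 510.0 and 336 CPM (log2 fold change −1.10, adjusted p = 0.149, edgeR). HSPA5 (BiP) had 902 and 1145 CPM against 1248 and 1688 CPM, a log2 fold change of 0.52 (adjusted p = 0.389, edgeR). Cytosolic heat shock genes had a median of 0.02 with 0 of 17 called, and NRF2 targets a median of 0.12 with 0 of 15 called. With the offsets 3 genes of each list were called up, and without ADAR sg2 0 heat shock genes and 2 NRF2 targets.

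Among the 17 tested genes for eIF2α kinases, eIF2 subunits and the phosphatase, PPP1R15A alone passed the test in the 4 libraries, while 3 were called up with the offsets and 3 without ADAR sg2. EIF2AK2, which encodes PKR, had 232 CPM with GFP sg1, 480 CPM with GFP sg2, 290 CPM with ADAR sg1 and 219 CPM with ADAR sg2, so the groups overlapped and the spread between controls exceeded the difference (log2 fold change −0.49, SE 0.40, adjusted p = 0.523 in edgeR). Its sign turned with the settings, to 0.18 with the GC and length offsets and to 0.13 without GFP sg2. PPP1R15B, the constitutive counterpart of PPP1R15A, had a log2 fold change of 0.90 (adjusted p = 0.202, edgeR) and passed with the offsets (adjusted p = 0.00728, edgeR). Without ADAR sg2 its log2 fold change was 0.98.

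Immediate-early genes, which answer growth factor and stress kinases without new protein synthesis, formed the next group. Of 40 listed genes 35 were tested, 6 rose (1.2% of all tested genes did) and 0 fell, with a median log2 fold change of 1.48. The median was 1.28 with the offsets and 1.10 without ADAR sg2. These genes are rich in GC, with a median of 55.9%, and their median log2 ratio was 1.07 in ADAR sg1 and 1.81 in ADAR sg2. In 32 of the 35 both ADAR libraries stood above both controls (25.1% of all genes). With the offsets 21 were called up and 1 down, and without ADAR sg2 23 up and 1 down, where 6.5% and 5.91% of all genes were called up. EGR1, a zinc finger transcription factor (chromosome 5 of GRCh37, 137801168 to 137804992, plus strand), had 2.32 and 4.01 CPM in the controls, 94.5 CPM with ADAR sg1 and 241 CPM with ADAR sg2. Its log2 fold change of 5.59 (SE 0.61, adjusted p = 0.0272 in edgeR) was among the 15 largest of all genes called. FOS and JUN, the partners in AP-1, rose by 3.81 and 2.64 on the log2 scale (adjusted p = 0.0296 and 0.038, edgeR). DUSP8, a phosphatase of stress kinases, rose by 4.07, MAFF, a small Maf factor, by 3.30, and KLF4 by 2.77. FOS was low, with 4 and 8 reads in the controls and 24 and 80 reads after KO, while JUN had 212 and 176 CPM against 669 and 1749 CPM. MYC, FOSB and DUSP5 were higher in both KO libraries but missed the threshold, with adjusted p between 0.0511 and 0.0587 in edgeR.

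NF-kB targets and inflammatory cytokines also rose in part, and their ADAR libraries lay closer together. Of 26 tested, 6 rose (1.2% of all tested genes did) and 0 fell, with a median log2 fold change of 1.40. That median was 1.00 with the offsets and 1.07 without ADAR sg2. With the offsets 16 were called up (6.5% of all genes), and without ADAR sg2 17 (5.91% of all genes). CXCL8 (interleukin 8), which attracts neutrophils, had 36.4 and 35.0 CPM in the controls, 338 CPM with ADAR sg1 and 188 CPM with ADAR sg2. Its log2 fold change was 2.88 (SE 0.40, adjusted p = 0.0272 in edgeR). CXCL1 had 60.4 and 49.6 CPM against 213 and 206 CPM, and CXCL2 20.1 and 16.3 CPM against 96.2 and 197 CPM. These 3 chemokines lie in 1 cluster on chromosome 4. TNFAIP3 (A20), an enzyme that dampens NF-kB signalling, was the most abundant of the genes that rose here, with 363 and 268 CPM in the controls and 1069 and 1440.1 CPM after KO. IL1B and TRAF1 also rose, by 3.02 and 2.73 on the log2 scale. NFKBIA, the inhibitor IκBα, had a log2 fold change of 0.52 (adjusted p = 0.386, edgeR), and CCL2 was lower in both KO libraries at −1.68 (adjusted p = 0.168, edgeR).

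RefSeq promoters (GRCh38.p14) were matched by symbol to 102 of the 134 genes that rose, and the 250 bases before each start were searched on both strands for 4 motifs. TGATGNAA is the core of the C/EBP-ATF response element, TGACGTCA the cAMP response element, the CArG box the site of serum response factor, and the last the core of the interferon-stimulated response element. TGACGTCA and the CArG box read as matches on both strands at once, and no match of 1 motif lay within another in the windows below. TGATGNAA occurred in 6 of the 102 promoters (5.88%) and in 3.19% of all 27305 promoters, TGACGTCA in 5 (4.9%) and in 1.77%, the CArG box in 3 (2.94%) and in 1.14%, and the interferon element in 3 (2.94%) and in 3.07%. Among the promoters of the tested genes alone, the shares were 1.24%, 3.14%, 1.02% and 2.28% in the same order. Only 1 promoter per symbol was searched. The windows below belong to genes of the stress, immediate-early and EGFR lists that rose and hold a motif. They are written 5′ to 3′ on the strand of the gene, with the motif in capitals.
ATF3 (plus strand, chr1:212565185-212565254, TGATGNAA): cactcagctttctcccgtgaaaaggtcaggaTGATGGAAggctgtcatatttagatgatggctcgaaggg
PPP1R15A (plus strand, chr19:48872332-48872401, TGACGTCA): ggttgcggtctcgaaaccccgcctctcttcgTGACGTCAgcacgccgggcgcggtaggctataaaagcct
EGR1 (plus strand, chr5:138465355-138465424, CArG box): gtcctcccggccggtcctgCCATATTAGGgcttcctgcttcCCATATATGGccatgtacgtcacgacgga
DUSP8 (minus strand, chr11:1572329-1572398, TGACGTCA): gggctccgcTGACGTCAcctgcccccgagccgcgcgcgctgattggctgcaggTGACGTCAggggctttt
MAFF (plus strand, chr22:38201909-38201978, TGACGTCA): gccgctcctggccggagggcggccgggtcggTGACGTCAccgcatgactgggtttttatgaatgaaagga
AREG (plus strand, chr4:74445040-74445109, TGACGTCA): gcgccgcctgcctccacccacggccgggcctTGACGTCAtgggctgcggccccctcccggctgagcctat
EGR1 and DUSP8 held a pair of matches each, and the other promoters 1 each. None of the 22 tested NF-kB genes with a promoter held any of the 4 motifs, and no NF-kB motif was searched. A match of letters is a description of the window and not a measured binding site.

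ISGs had a single call. Of 40 tested, 0 rose, 1 fell and the median log2 fold change was 0.16. The median was −0.25 without GFP sg1 and 0.85 without GFP sg2, so its direction rested on single controls. The gene that fell was SAMD9L, an interferon-inducible antiviral and growth-restraining factor, on chromosome 7 of GRCh37 (92759369 to 92777698, minus strand), with 20.1 and 53.6 CPM in the controls and 5.25 and 1.94 CPM after KO (log2 fold change −3.46, SE 0.67, adjusted p = 0.0497 in edgeR). Its neighbour in family, SAMD9, had 131 and 368 CPM against 135 and 62.1 CPM, and its groups overlapped. The controls were not alike in this list, since the 48 listed genes summed to 4157 CPM with GFP sg1 and 7924 CPM with GFP sg2, against 6519.9 CPM with ADAR sg1 and 8529 CPM with ADAR sg2. The part of this spread in the calls was not tested.

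Single ISGs went in both directions. IRF7, the inducer of interferon alpha genes, had 39.5 and 93.7 CPM in the controls and 156 and 474 CPM after KO (log2 fold change 2.22, adjusted p = 0.113, edgeR). ISG15, a ubiquitin-like modifier, had 86.0 and 119 CPM against 183 and 703 CPM (2.10, adjusted p = 0.122, edgeR), and MX1 and DHX58 were likewise higher in both KO libraries without passing. IFIT1 had 201 and 500.2 CPM against 181 and 146 CPM, a log2 fold change of −1.11 (adjusted p = 0.237, edgeR). Over all genes, 6.5% were called up and 3.04% down with the offsets. Without ADAR sg2, 9 members were called up and 7 down, and with the GC and length offsets 7 up and 2 down. The 21 tested genes of dsRNA sensing had a median of −0.12 with 0 called, and 1 up and 1 down in each of these other fits. None of the 8 interferon genes listed had enough reads to be tested. IFNB1, interferon beta, had 0 and 2 reads in the controls and 3 and 6 reads after KO, and IFNL1 had 1 and 4 against 3 and 12 reads. The 8 genes summed to 1.55 and 3.72 CPM in the controls and 7.87 and 15.5 CPM after KO, so both KO libraries were above both controls, but this difference was not tested.

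A pair of genes of death signalling rose. Of 18 tested p53 targets and 28 tested cell death genes, the same 2 rose in each list (1.2% of all tested genes did), TNFRSF10B and BBC3 (PUMA), a BH3-only activator of apoptosis. BBC3 had 10.1 and 11.5 CPM in the controls and 36.7 and 76.3 CPM after KO (log2 fold change 2.38, SE 0.46, adjusted p = 0.0481 in edgeR). PMAIP1 (NOXA), MCL1, CDKN1A (p21) and BAX had log2 fold changes of 1.43, 1.25, 2.09 and 1.63 with adjusted p between 0.0853 and 0.13 in edgeR. The medians of the lists were 0.44 and 0.27. With the offsets 6 p53 targets and 7 cell death genes were called up (6.5% of all genes), and without ADAR sg2 7 and 8 (5.91% of all genes). FAS, a p53 target and death receptor, was lower in both KO libraries at −1.02 (adjusted p = 0.335, edgeR).

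Among ligands and feedback inhibitors of EGFR signalling, a ligand and an inhibitor rose. Of 13 tested, 2 rose and 0 fell with a median of 0.59, where 1.2% of all tested genes rose. A positive fold change was found in 12 of the 13, and in 5520 of all 11135 genes tested. SPRY2, a feedback inhibitor of receptor tyrosine kinases, had 41.1 and 30.1 CPM in the controls and 162 and 199.8 CPM after KO. AREG, the ligand amphiregulin, had 1.55 and 0.859 CPM against 12.2 and 12.3 CPM, which is 2 and 3 reads against 14 and 19 reads. With the offsets 5 were called up, and without ADAR sg2 6. The share of all genes called up with the offsets was 6.5%. EGFR itself had a log2 fold change of 0.22 (adjusted p = 0.698, edgeR).

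The genes of mitosis had mostly negative fold changes in HCC366 (27 of 29), where 5520 of all 11135 genes had positive ones, but 0 of 29 passed. None stood above both controls in both ADAR libraries, 14 were below them in both (27.3% of all genes tested were), and the median log2 fold change was −0.62. CENPF, a kinetochore protein, had 229 and 194 CPM in the controls and 78.7 and 64.0 CPM after KO (log2 fold change −1.57, SE 0.34, adjusted p = 0.0667 in edgeR). TOP2A, the topoisomerase of mitotic chromosomes, had 689 and 582 CPM against 326 and 120.3 CPM (adjusted p = 0.152, edgeR). These genes are poor in GC, with a median of 42.1%, and their median log2 ratio was −0.16 in ADAR sg1 and −1.36 in ADAR sg2. With the offsets 5 were called down with a median of −0.44, and without ADAR sg2 6 were called down with a median of −0.14. The share of all genes called down with the offsets was 3.04%. DNA replication genes had a median of −0.15 and 0 of 35 called.

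The 13 protein-coding genes of the mitochondrial genome had negative fold changes in 12 cases, with a median of −0.74 and 0 called. Of all 11135 genes tested, 5520 had a positive fold change, and 3.04% were called down with the offsets. MT-ND4 had 1002 and 1132 CPM in the controls against 649 and 449 CPM (log2 fold change −0.96, adjusted p = 0.176, edgeR), and 10 of the 13 were below both controls in both KO libraries (27.3% of all genes). With the offsets 3 were called down and without ADAR sg2 4. The whole mitochondrial genome held 1.31% and 1.38% of reads on genes in the controls, 1.02% in ADAR sg1 and 2.31% in ADAR sg2. The 13 coding genes instead summed to 9398 and 10596 CPM in the controls, 7263 CPM in ADAR sg1 and 4119 CPM in ADAR sg2. The higher share in ADAR sg2 therefore lay on mitochondrial genes outside these 13. Cytosolic ribosomal proteins had a median of −0.16 with 0 of 75 called, and replication-dependent histones −0.28 with 0 of 28 called. The histones had 1 up and 5 down with the offsets, at a median of −0.63, and 2 up and 1 down without ADAR sg2. Sterol synthesis (median −0.09, 22 genes) and glycolysis and hypoxia genes (median −0.04, 23 genes) had 0 calls each. With the offsets 1 sterol gene was called up, and 2 glycolysis and hypoxia genes up and 3 down, at a median of −0.40. Without ADAR sg2 the counts were 1 up, and 2 up and 2 down.

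Host genes of small nucleolar RNAs, whose spliced transcripts are short-lived when translated, were mostly higher. Of 17 tested, 1 rose and 0 fell, where 1.2% of all tested genes rose, or 6.5% with the offsets. Their median was 0.91, and 11 of the 17 stood above both controls in both ADAR libraries (25.1% of all genes). EPB41L4A-AS1 had 9.30 and 6.88 CPM in the controls against 33.2 and 50.4 CPM (log2 fold change 2.42, SE 0.43, adjusted p = 0.0394 in edgeR). SNHG5 had 19.4 and 18.9 CPM against 61.2 and 64.0 CPM (1.71, adjusted p = 0.0618, edgeR). With the offsets 8 were called up, and without ADAR sg2 10.

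**Figure D4:**
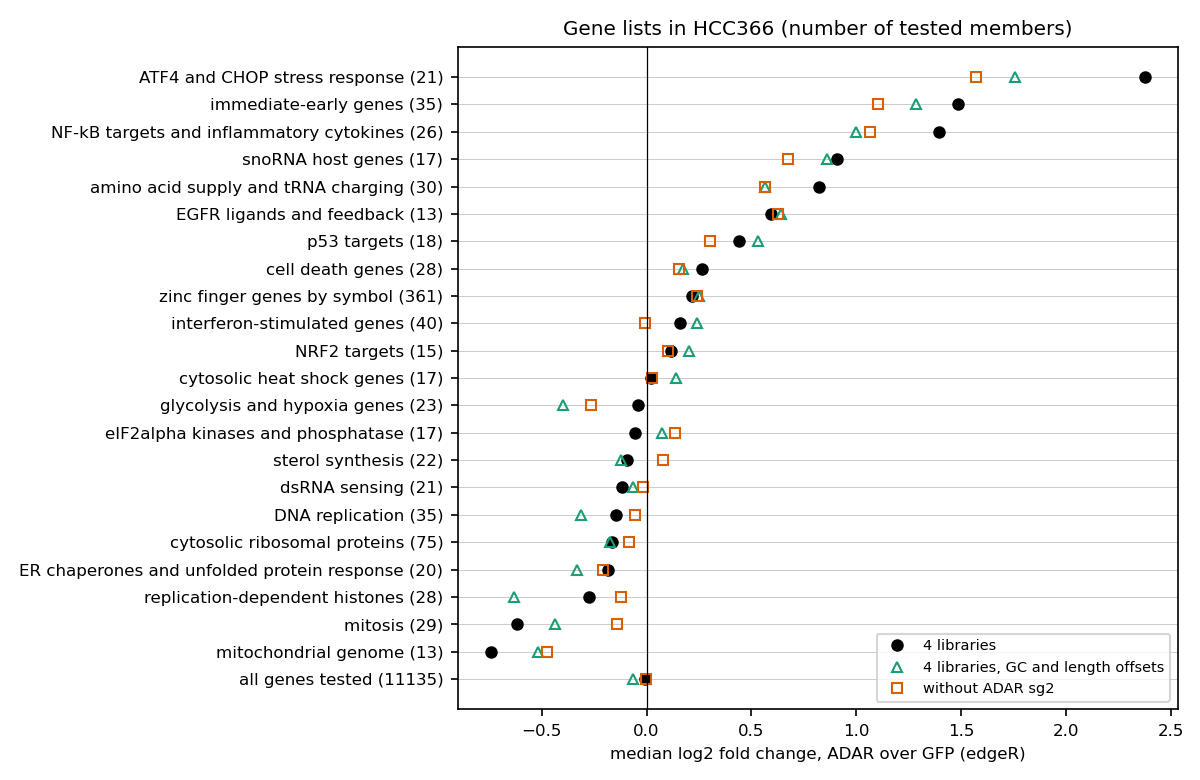
Median log2 fold change of ADAR over GFP (x axis) of the tested members of each gene list with at least 13 of them (y axis, number in parentheses), in the 4 libraries (filled circles), with GC and length offsets (triangles) and without ADAR sg2 (squares). The ATF4 and CHOP list stands highest at 2.38, 1.76 and 1.57, and the median of the mitosis list lies between −0.62 in the 4 libraries and −0.14 without ADAR sg2.

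The largest fold changes belonged to genes that the controls barely expressed. KLF15, a regulator of amino acid and glucose metabolism, had 0 reads in both controls and 8 and 40 reads after KO, and was at least 28.4-fold higher against a floor of 3 reads over both controls. CD300C, an immune receptor, had 0 reads against 12 and 19 (at least 18.4-fold), SPX, the peptide hormone spexin, 0 against 8 and 20 (at least 16.6-fold), and ADH1C, an alcohol dehydrogenase, 0 against 9 and 14 (at least 13.6-fold). NID1, a basement membrane protein, had 0 and 1 reads in the controls and 17 and 24 after KO, a ratio of 72.9 with a 95% counting interval from 12.4 to 2948. Of the 134 genes that rose, 17 had at most 3 reads over both controls. These pass the count filter only through the KO libraries.

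Most other large rises had some reads in the controls. SH2D5, an adaptor protein, had 1.55 and 4.01 CPM in the controls and 29.7 and 101 CPM after KO. CYP1A1, the cytochrome induced through the aryl hydrocarbon receptor, had 2 and 3 reads against 16 and 45 reads. ACTN2, a muscle α-actinin, had 2.32 and 0.286 CPM against 25.4 and 23.9 CPM. KRTAP2-3, a keratin-associated protein, rose by 4.94 on the log2 scale, but it has near-identical copies among which reads could be split. CD300LB, IRGM, GRIK5, LBX2-AS1 and DIO2 complete the 15 largest among genes with a symbol, with log2 fold changes between 4.64 and 5.21. IRGM had 1 read over both controls, and CD300LB, GRIK5, LBX2-AS1 and DIO2 had 2 each. A pair of genes without a symbol also rose from near 0. ENSG00000267654 had 0 reads in both controls and 9 and 12 after KO (at least 12.4-fold). ENSG00000263574 had 0 and 1 reads against 10 and 30.

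Besides SAMD9L and 1 gene without a symbol, the genes that fell were CCP110, BRCC3 and CAMK4. CCP110, a cap protein of centrioles, had 55.8 and 66.2 CPM in the controls and 13.1 and 10.99 CPM after KO (log2 fold change −2.35, SE 0.39, adjusted p = 0.0323 in edgeR). BRCC3, a deubiquitinase of DNA repair and interferon receptor complexes, had 47.3 and 44.4 CPM against 11.4 and 7.11 CPM. CAMK4, a calcium-dependent kinase, had 39.5 and 45.3 CPM against 11.4 and 6.47 CPM. All 5 were also called down with the offsets and without ADAR sg2, and their GC content lay at the low end, between 37.2% for CAMK4 and 42.9% for the unnamed gene.

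NCI-H1650, another ADAR1-dependent line, whose 4 libraries are all deeper than those of HCC366, was compared with it. Of the 134 genes that rose in HCC366, 107 could be tested in NCI-H1650, 101 had a positive fold change there and 77 were called up, where 6.18% of all genes tested in that line were. Of the 5 that fell, 4 had a negative fold change in NCI-H1650 and 1 was called down. The log2 fold change was larger in HCC366 for 106 of the 107, which were chosen for their rise in HCC366, so this order is a description. EGR1 had a log2 fold change of 5.59 against 1.83, PPP1R15A 4.12 against 1.16, TRIB3 3.64 against 0.73 and TNFAIP3 1.99 against 1.73. In a fit of the 8 libraries, the difference between the lines passed the threshold for 1 gene of 15406 (0.00649%) and in the other direction for 0 (0%), while 1851 genes had an unadjusted p under 0.05 in edgeR. DESeq2 called 69 and 19.

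That gene was NID1, on chromosome 1 of GRCh37 (236139130 to 236228409, minus strand). It had 0 and 0.296 CPM with the GFP sgRNAs and 15.2 and 15.6 CPM with the ADAR sgRNAs in HCC366, against 93.7, 91.1, 96.2 and 77.5 CPM in NCI-H1650, where it was abundant throughout. The difference of the log2 fold changes was 6.03 (SE 0.69, adjusted p = 0.0364 in edgeR), and it rests on 1 read in the HCC366 controls. The call was lost with the replicate block (adjusted p = 0.162, edgeR) and on leaving out either HCC366 control or any NCI-H1650 library (adjusted p between 0.133 and 0.821, edgeR). For PPP1R15A the difference was 2.94 (SE 0.62, adjusted p = 0.151 in edgeR), for TRIB3 2.92 (adjusted p = 0.13, edgeR) and for ATF3 2.23 (adjusted p = 0.13, edgeR). With GC and length offsets, PPP1R15A, TRIB3 and ATF3 passed, at 2.48, 2.46 and 2.10.

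**Figure D5:**
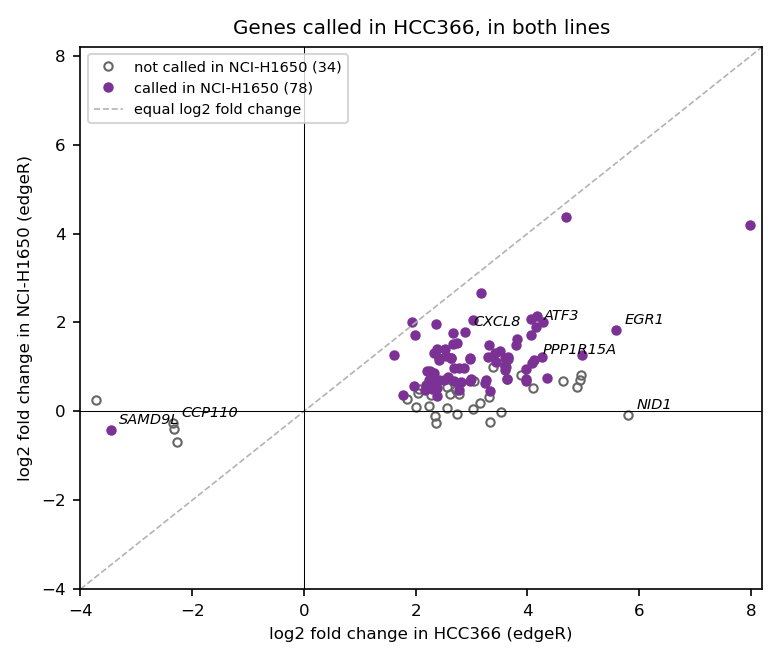
Log2 fold change of ADAR over GFP in NCI-H1650 (y axis) against that in HCC366 (x axis), both from edgeR, for the genes called in HCC366 that could be tested in both lines. Filled points were called in NCI-H1650 too (77 up and 1 down), most points lie below the dashed line of equal change, and NID1 stands at 5.80 against −0.09.

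The label names an adenosquamous carcinoma, and the main transcription factors of both lineages, TP63, SOX2 and NKX2-1, were at or near 0 in all HCC366 libraries, while simple keratins were abundant. Scaled per kilobase of transcript, KRT7 stood between 664 and 1021, KRT8 between 621 and 1078 and KRT18 between 449 and 686 CPM per kb, while EPCAM was at most 1.30 and KRT19 at 0 in all 4 libraries. Of the squamous genes, SOX2, DSG3 and KRT13 were at 0 and TP63 at most at 0.885 CPM per kb. Others had reads in all 4 libraries, namely KRT15 (9.4 to 24.9 CPM per kb), PERP (6.2 to 14.4) and S100A2 (2.3 to 25.8). Of the adenocarcinoma genes, SFTPC and SCGB1A1 were at 0, and NKX2-1 had 1 read, in ADAR sg2. Low levels were seen for NAPSA (1.9 to 4.8 CPM per kb), FOXA1 (1.6 to 2.2) and MUC1 (1.3 to 4.1). UCHL1, a neuroendocrine marker, stood between 104 and 176 CPM per kb, while NEUROD1 and INSM1 were at 0. DLL3, CHGA and SYP had reads in all 4 libraries, at most 4.6, 2.3 and 3.2 CPM per kb. Of these lists, 5 epithelial, 4 squamous, 6 mesenchymal and 1 each of the adenocarcinoma, neuroendocrine and endothelial genes could be tested, and 0 of them were called. With the offsets 2 epithelial genes were called down and 2 squamous and 1 mesenchymal up, and without ADAR sg2 2 epithelial genes down. The 16 squamous genes summed to 96.8 and 83.4 CPM in the controls and 108 and 177 CPM after KO, and KRT17, a squamous keratin, stood at 2.55 and 1.13 CPM per kb in the controls and 6.92 and 43.5 CPM per kb after KO. The 16 epithelial genes summed to 4285, 4040.2, 2875 and 3846 CPM in GFP sg1, GFP sg2, ADAR sg1 and ADAR sg2. The 12 immune markers summed to between 1.94 and 8.88 CPM. Genes outside that list that are known from leukocytes were among those that rose, and were chosen here after their values were seen. ITGAM, an integrin of myeloid cells, had 10 and 22 reads in the controls and 38 and 84 after KO. CCR4, a chemokine receptor, had 1 and 6 reads against 21 and 28, a log2 fold change of 3.61.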

How the data were processed

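The members and gene lists were chosen with earlier results of these data known. Total RNA was depleted of ribosomal RNA and made into directional libraries. The authors aligned 150-base paired reads to hg19 with STAR and deposited raw HTSeq counts per Ensembl gene, without normalization. HTSeq's summary lines, 66.5% to 93.3% of each HCC366 file, were left out. Versions and the annotation release are not given in the sources used here. Symbols, positions, length and GC content came from GENCODE 44 on GRCh37 and matched 55727 of 58233 identifiers (97.4% of counts). The tests were run with edgeR 4.0.16 in R 4.3.3 (TMM, filterByExpr, quasi-likelihood F-test, prior count 0.125, 2 residual degrees of freedom, Benjamini-Hochberg threshold 0.05, two-sided) and, as an alternative, DESeq2 1.42.0. The script was tested on simulated data. GC and length offsets were fitted splines with 4 degrees of freedom each. Per-library log2 ratios used CPM + 0.5. Counting intervals and floors cover counting error only. Lists had 705 genes, 694 of them matched, and were described by counts and medians without a set test. Named genes were those the study names, the 15 largest rises and up to 5 largest falls called among genes with a symbol, up to 4 members per list with the lowest p, and the largest called differences between lines. Between GFP and ADAR, the same number names different sgRNAs, so the main fit has no replicate block.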

Additional observations from a re-analysis of the deposited data

Results flagged for a closer look

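NID1 was called in the test of the difference between the lines, on 1 read over both HCC366 controls. Its log2 fold change after ADAR KO was higher in HCC366 than in NCI-H1650 by 6.03 (standard error 0.69, adjusted p = 0.0364, edgeR). The call was lost with the replicate block and on leaving out either HCC366 control or any NCI-H1650 library.

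ADAR sg2 of HCC366 held signals outside the gene counts above the level in the GFP libraries. Alignments that were not unique made up 85.6% there, against 50.9% in GFP sg1 and 45.3% in GFP sg2, and 22.5% to 59.1% in the 16 libraries of the other lines. Reads outside genes numbered 0.985 per read on genes there, against 0.47 in GFP sg1, 0.516 in GFP sg2 and 0.436 in ADAR sg1. Their part in the results was not tested.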

How the results depend on the processing

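In HCC366, the main fit called 134 genes up and 5 down. The counts were 118 and 3 with DESeq2 size factors, 636 and 267 with no filter on low counts, 298 and 64 with the DESeq2 test, 724 and 339 with GC and length offsets, 109 and 2 with protein-coding genes only, and 2052 and 1649 with all 20 libraries in one fit, which shares the spread of every condition. With each library left out in turn they ranged from 9 to 3216 up (35 without GFP sg1, 9 without GFP sg2, 3216 without ADAR sg1 and 664 without ADAR sg2) and from 0 to 3192 down (2, 0, 3192 and 394). The lone library of a group is then assumed to vary like the pair that remains. A replicate block by sgRNA number gave 256 and 44, and 1028 and 726 with the block and the offsets together. Same-numbered libraries deviated with a correlation of −0.253, so the numbers were not taken to pair the libraries. A crossed replicate block, chosen after seeing the data, gave 559 and 401.

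For the difference from NCI-H1650 (1 higher, 0 lower), the counts were 226 and 92 with no filter, 69 and 19 with DESeq2, 255 and 112 with the offsets, 241 and 191 with all 20 libraries, and 0 and 0 with the replicate block. With 1 library left out they ranged from 0 to 2147 higher and from 0 to 2910 lower, the extremes without ADAR sg1 of HCC366, with 135 and 95 without ADAR sg2 and 0 and 0 without any other library. The causes were not tested.

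The log2 fold change of EIF2AK2, −0.49, ranged from −0.947 without GFP sg1 to 0.134 without GFP sg2, and was 0.177 with the offsets and 0.236 with the replicate block and the offsets. No other gene among those the study names and the largest rises and falls changed sign, while list medians near 0 did, such as those of ISGs (−0.25 without GFP sg1, 0.85 without GFP sg2) and eIF2α genes (0.07 with the offsets). The low depth limits genes near 1 read, which is 0.287 to 0.875 CPM.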

Other observations

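Some genes that rose in HCC366 belong to groups outside the lists and were chosen after their values were seen. PER1 and NR1D1, repressors of the circadian clock, had 42.6 and 38.4 CPM and 17.04 and 11.5 CPM in the controls, against 150.5 and 281 CPM and 77.9 and 138 CPM after KO. NOCT, a rhythmic phosphatase of NADP(H), had 104 and 92.5 CPM against 476 and 567 CPM (log2 fold change 2.41, SE 0.32, adjusted p = 0.0272 in edgeR). HDAC9, a class IIa histone deacetylase, had 28.7 and 35.8 CPM against 253 and 257 CPM, and CREB5, a relative of ATF2, 5.42 and 5.73 CPM against 47.2 and 80.8 CPM. SQSTM1 (p62), the autophagy receptor, had 254 and 271 CPM against 747 and 2238 CPM. The ligand genes LTB, CSF3 and BMP2 rose by 4.16, 4.16 and 2.33 on the log2 scale, and CSF3 rests on 2 reads in the controls. Of 361 tested genes with a zinc finger symbol, 7 rose and 0 fell, with a median log2 fold change of 0.22. With GC and length offsets 49 were called up and 1 down, and without ADAR sg2 41 up and 7 down. The backgrounds of genes called up were 1.2%, 6.5% and 5.91%.

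Of the 133 genes called up with a position, 12 (9.02%) lay within 50 kb of another such gene, while 1.76% of the 11070 tested genes with a position lay within 50 kb of a gene called up. The 6 pairs were ALOXE3 with PER1, CD300LB with CD300C, ZNF554 with ZNF555, PSG5 with PSG4, TNFRSF10B with CHILL1, and PLA2G6 with MAFF. In 5 pairs both genes lie on the same strand, and PLA2G6 and MAFF overlap on opposite strands. PSG4 and PSG5 are close paralogs whose reads could be split.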
